A study of Mus musculus with 24 samples.

Results

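A set of 9 genes outside the core circadian clock (AI506816, Gm11437, Lrmda, Cldn1, Rnf125, Marveld1, Dhrs9, Serpinb1a and Camk1d) was examined in the livers of mice that lack the DNA glycosylase OGG1 and of WT mice, on each of 2 diets. They are 9 of the 19938 genes that the array measures with a probe set of a single gene symbol. The members were chosen by the measured values themselves: each had been noted earlier in these data for a difference between Ogg1-/- and WT livers on chow and again on the high-fat diet (HFD). The genotype differences are therefore given below as a description without a test, whereas the diet difference averaged over the genotypes and the way the genes vary together among mice of 1 group were not used directly. A choice by adjusted p also favours genes with a small residual spread, which the diet tests use again. Each of the 9 genes has 1 probe set with a single symbol.

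OGG1 excises 8-oxoguanine, a common oxidative base lesion, from DNA. Whole-liver RNA was hybridised to the Affymetrix Mouse Gene ST array, 1 array per mouse, with 6 male mice in each of 4 groups: Ogg1-/- on the HFD, WT on the HFD, Ogg1-/- on chow and WT on chow. According to the labels the mice were 10 weeks old at the start, were housed singly and fed ad libitum for 10 weeks. The strain is labelled C57BL6, and the null line had been backcrossed to C57BL/6J. The study's methods give an older age at the start of feeding than the labels do. The deletion is constitutive, so the Ogg1-/- mice lack OGG1 in all tissues, and the line was kept by crossing heterozygotes. The sources used here do not give the hour at which the livers were collected. In whole liver, fewer cells of a type and less RNA per cell cannot be told apart.

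The 9 genes belong to no single pathway. Claudin-1, the product of Cldn1, is a strand-forming protein of the tight junctions that seal bile canaliculi between hepatocytes, and Marveld1 encodes a membrane protein with a MARVEL domain, a fold shared with the junction protein occludin. Camk1d encodes a calcium/calmodulin-dependent protein kinase, Rnf125 a RING-type ubiquitin ligase that in human cells marks the viral RNA sensor RIG-I for degradation, Dhrs9 a short-chain dehydrogenase able to oxidise retinol and 3-alpha-hydroxysteroids, and Serpinb1a an inhibitor of neutrophil serine proteases. Lrmda encodes a leucine-rich repeat protein whose human counterpart is needed for melanocyte differentiation. Gm11437 is a protein-coding gene and AI506816 a long non-coding RNA gene in the RefSeq annotation of GRCm38.p6. For AI506816 the name rests on the platform annotation alone. None of the 9 lies on chromosome 6, which carries Ogg1.

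Promoter windows of 300 bases, from 250 before to 50 after the start, were found for 7 of the 9 genes in RefSeq on GRCm38.p6, with 2 starts for Camk1d. Rnf125 and Serpinb1a have no window here. Motifs of clock and stress factors were searched on both strands: the E-box CACGTG, bound by BMAL1 and CLOCK, the D-box TTATGTAA or TTACGTAA, the REV-ERB/ROR element NTAGGTCA, the antioxidant element TGACNNNGC and the cAMP element TGACGTCA. Of the 8 windows, 2 held a match, and they are shown with the match in capitals, followed for comparison by the upstream start of Camk1d, which held none. The first is the E-box in Lrmda (chr14:22019462-22019761, plus strand), which begins at base 4 from the start used for that window. The RefSeq span of Lrmda begins upstream of that start, at 22019504. The second is the REV-ERB/ROR element in Dhrs9 (chr2:69380212-69380511, plus strand), which begins at base -88 and is written as its reverse complement. The Camk1d window is chr2:5714713-5715012, minus strand.
Lrmda: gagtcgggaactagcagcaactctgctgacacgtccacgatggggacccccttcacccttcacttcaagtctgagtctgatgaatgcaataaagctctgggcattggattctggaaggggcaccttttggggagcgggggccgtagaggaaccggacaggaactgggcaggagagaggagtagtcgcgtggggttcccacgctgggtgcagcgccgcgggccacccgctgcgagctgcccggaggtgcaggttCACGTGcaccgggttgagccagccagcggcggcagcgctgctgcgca
Dhrs9: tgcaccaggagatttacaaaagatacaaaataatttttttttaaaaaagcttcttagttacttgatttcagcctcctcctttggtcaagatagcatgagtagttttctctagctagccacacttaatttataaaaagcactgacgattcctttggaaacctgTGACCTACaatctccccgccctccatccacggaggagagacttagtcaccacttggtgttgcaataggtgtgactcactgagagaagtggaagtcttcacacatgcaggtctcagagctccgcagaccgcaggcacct
Camk1d: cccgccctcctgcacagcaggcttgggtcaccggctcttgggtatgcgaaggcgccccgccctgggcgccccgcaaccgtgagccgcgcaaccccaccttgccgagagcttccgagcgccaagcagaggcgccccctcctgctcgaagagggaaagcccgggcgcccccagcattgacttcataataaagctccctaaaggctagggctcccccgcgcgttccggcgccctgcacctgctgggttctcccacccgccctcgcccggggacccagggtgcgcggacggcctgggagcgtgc
Over all 32851 windows of this length in the table, 7.15% held the E-box, 1.06% the D-box, 2.59% the REV-ERB/ROR element, 12.4% the antioxidant element and 1.79% the cAMP element. One E-box and 1 REV-ERB/ROR element among 8 windows are matches of letters only.

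The arrays as a whole were described first. No 2 of the 24 arrays were identical, and their pairwise correlations lay between 0.952 and 0.993. Ogg1 had a log2 signal of 5.87 ± 0.13 in Ogg1-/- and 6.46 ± 0.08 in WT livers on the HFD, and of 5.93 ± 0.06 in Ogg1-/- and 6.47 ± 0.11 in WT livers on chow (SD, n = 6 each). No source used here places the Ogg1 probes relative to the deleted sequence. An axis of variation was taken as the first principal component of the deviations within the 2 chow groups. It held 40.2% of that variation, of which replicate 1 of the Ogg1-/- chow group contributed 59.2%. That liver was the lowest of its group for 7 of the 9 genes (AI506816, Gm11437, Cldn1, Rnf125, Dhrs9, Serpinb1a and Camk1d) and the highest for Marveld1. Axis scores ran from 18.5 to 54.8 in Ogg1-/- and from -20.7 to 10.4 in WT livers on the HFD, and from -42.1 to 80.9 in Ogg1-/- and from -46.1 to -6.51 in WT livers on chow. An ending in the sample descriptions, whose meaning is not given, is "f" on all Ogg1-/- samples and "fr" on all 6 WT chow samples and on replicate 5 of the WT HFD group. On chow this ending and the genotype cannot be told apart. As a covariate, the ending is therefore estimated only from WT HFD replicate 5 against the other WT HFD livers. Values adjusted for it rest on that liver.

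Of the 9 genes, 7 were lower and 2 were higher in Ogg1-/- than in WT livers, on each diet. The thresholds by which the members were noted, an adjusted p under 0.05 and a fold of at least 1.5, were met by all 9 genes on chow and by 8 on the HFD. Over all 35556 probe sets, 0.242% met both on chow, 5.89% on the HFD and 0.141% on both diets in 1 direction. Since these contrasts chose the members, nothing is read from those counts. With each of the 24 arrays left out in turn, the adjusted p of AI506816 on the HFD was at or over 0.05 in 13 fits (limma, up to 0.132). These were the fits without Ogg1-/- HFD replicates 2, 3, 5 or 6, WT HFD replicates 1, 2, 4 or 6, Ogg1-/- chow replicates 2, 3 or 5, or WT chow replicates 1 or 2. On chow, the same held for Dhrs9 in 5 fits (up to 0.0732), without Ogg1-/- chow replicates 1 or 2 or WT chow replicates 1, 4 or 6. For Marveld1 it held in 6 fits (up to 0.0688), those 5 and the one without Ogg1-/- chow replicate 3. For Rnf125 it held in 9 fits (up to 0.119), those 6 and the ones without Ogg1-/- HFD replicate 2, WT HFD replicate 1 or WT chow replicate 2. Serpinb1a did not meet the threshold of adjusted p on the HFD, where it had an adjusted p of 0.0668 from the limma model and a fold of 1.51, so the description as shifted on both diets was not met for it. It passed 0.05 in 3 of the 24 fits, those without WT HFD replicate 3 or WT chow replicates 2 or 6. Just inside the limits lay AI506816 on the HFD (adjusted p = 0.0465, limma), Dhrs9 on the HFD (1.51-fold) and Marveld1 on chow (1.52-fold).

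Cldn1 was lower in Ogg1-/- livers on both diets. On the HFD its log2 signal ran from 10.44 through a median of 10.63 to 10.93 in Ogg1-/- livers, and from 11.25 through 11.41 to 11.64 in WT livers. In chow-fed mice the range was from 10.60 through 10.99 to 11.30 in Ogg1-/- livers, and from 11.46 through 11.61 to 11.91 in WT livers. Every Ogg1-/- liver lay below every WT liver on each diet. The difference was -0.74 (SE 0.11) on the HFD, a 1.67-fold lower signal, and -0.67 (SE 0.11) on chow, 1.59-fold lower. None of the 38 other tight junction and claudin genes passed an adjusted p of 0.05 on chow. On the HFD, 2 passed higher and 3 lower in Ogg1-/- livers. Among them were Cldn2, a claudin that forms cation pores (difference of -0.74), F11r, the junctional adhesion molecule A (0.39), and Pals1, a polarity scaffold (-0.84). The median difference over the 38 was 0.01 on each diet, against 0.03 over all genes.

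Marveld1 was higher in Ogg1-/- livers. On the HFD its log2 signal ran from 9.97 through a median of 10.24 to 10.33 in Ogg1-/- livers, and from 9.02 through 9.23 to 9.58 in WT livers, without overlap. On chow it ran from 9.10 through 9.42 to 9.78 in Ogg1-/- livers and from 8.59 through 8.75 to 9.19 in WT livers, and the highest WT liver lay above the lowest Ogg1-/- livers. The difference was 0.92 (SE 0.12) on the HFD and 0.60 (SE 0.12) on chow. Of 22 other MARVEL domain genes, none passed on chow, and on the HFD 5 passed higher and none lower. These included the vesicle proteins Sypl1 (0.44) and Syngr2 (0.47) and the chemokine-like Cmtm7 (0.36). Over all 19938 genes, 11.9% passed higher and 11.8% lower on the HFD, against 0.341% higher and 0.276% lower on chow. These shares are the background for the counts of every gene list given above and below. No list was tested as a set.

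Camk1d was lower in Ogg1-/- livers by more than 2-fold on each diet. On the HFD its log2 signal ran from 6.94 through a median of 7.46 to 7.53 in Ogg1-/- livers, and from 8.11 through 8.62 to 9.10 in WT livers. The chow-fed mice had values from 7.77 through 8.53 to 8.91 in Ogg1-/- livers, and from 9.10 through 9.46 to 9.80 in WT livers. The groups did not overlap on either diet. The difference was -1.26 (SE 0.20) on the HFD, 2.40-fold lower, and -1.03 (SE 0.20) on chow, 2.04-fold lower. Of the 18 other calcium/calmodulin kinase genes, 1 passed higher on chow, and 5 passed higher and 1 lower on the HFD. Camk2n1, an inhibitor of CaM kinase II, was higher on the HFD (0.60) and on chow (0.59). Crtc2, a co-activator of CREB, was higher on the HFD (0.48), where Creb1 was lower (-0.48).

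Rnf125 was also lower in Ogg1-/- livers. On the HFD its log2 signal ran from 9.89 through a median of 10.68 to 10.89 in Ogg1-/- livers, and from 11.01 through 11.77 to 12.51 in WT livers. On chow the signal ran from 10.73 through 11.29 to 11.69 in Ogg1-/- livers, and from 11.84 through 12.24 to 12.62 in WT livers. No Ogg1-/- liver reached the lowest WT liver of its diet. The difference was -1.17 (SE 0.22) on the HFD, 2.25-fold lower, and -0.98 (SE 0.22) on chow, 1.97-fold lower. With the axis score as a covariate the HFD difference was -0.78. Among 16 related ligases and genes of RIG-I signalling, none passed on chow, and 7 passed higher and 3 lower on the HFD. The higher ones included the sister ligase Rnf138 (0.49), the ubiquitin-conjugating enzyme Ube2d2a (0.39) and Mavs, the mitochondrial adaptor of RIG-I (0.27). The 3 lower ones were Ifih1 (-0.61), Tbk1 (-0.45) and Trim25 (-0.38). The gene of RIG-I itself was not among the 16.

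Dhrs9 had a log2 signal from 4.77 through a median of 5.03 to 5.22 in Ogg1-/- livers on the HFD, and from 5.24 through 5.65 to 5.89 in WT livers on that diet. Chow-fed mice ranged from 4.94 through 5.38 to 5.60 in Ogg1-/- livers, and from 5.61 through 6.02 to 6.74 in WT livers. The ranges nearly touched but did not overlap on either diet. The difference was -0.59 (SE 0.16) on the HFD and -0.81 (SE 0.16) on chow. It was -0.33 on the HFD with the axis score as a covariate. With the label ending as a covariate it was -1.25 on chow, a shift that rests on WT HFD replicate 5 alone. Its mean signal was at the 42.3rd percentile of all probe sets. Of 40 other genes of retinol and retinoic acid metabolism, only Stra6l, which encodes a retinol transporter, passed on chow (-0.40), and it was lower on the HFD as well (-0.42). On the HFD 6 passed higher and 8 lower, with Lrat, which esterifies retinol, at -0.96 and the retinoid X receptor Rxra at 0.48.

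Serpinb1a spread most in WT livers on chow (SD 0.60, n = 6). On the HFD its log2 signal ran from 6.01 through a median of 6.39 to 6.65 in Ogg1-/- livers, and from 6.58 through 6.75 to 7.57 in WT livers, with overlap. On chow it ran from 6.06 through 6.58 to 7.01 in Ogg1-/- livers, and from 7.04 through 7.79 to 8.73 in WT livers, without overlap. The difference was -0.60 (SE 0.23) on the HFD and -1.27 (SE 0.23) on chow. The HFD difference minus the chow difference was 0.67 (SE 0.32), given with no test. Among 20 other clade B serpins and neutrophil proteases, Serpinb6b passed lower on chow (-0.89) and on the HFD (-0.54). Serpinb8 (-0.80) and Serpinb9 (-0.92), the granzyme B inhibitor, passed lower on the HFD. None of the 13 neutrophil markers passed on either diet, and their mean log2 signal per liver ran from 4.85 to 5.004 in Ogg1-/- and from 4.74 to 4.96 in WT livers on the HFD, and from 4.76 to 5.05 in Ogg1-/- and from 4.76 to 4.88 in WT livers on chow.

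Lrmda was lower in Ogg1-/- livers on both diets. On the HFD its log2 signal ran from 5.31 through a median of 5.45 to 5.63 in Ogg1-/- livers, and from 6.12 through 6.45 to 6.59 in WT livers. For chow-fed mice the range was from 5.34 through 5.54 to 6.10 in Ogg1-/- livers, and from 6.34 through 6.38 to 6.70 in WT livers. The groups did not overlap on either diet. The difference was -0.95 (SE 0.12) on the HFD and -0.78 (SE 0.12) on chow. Of 23 other melanosome and melanocyte genes, none passed on chow, and 1 passed higher and 6 lower on the HFD. The lower ones included Hps3 (-0.69), a subunit of a complex for lysosome-related organelles, and the adaptor subunits Ap3b1 (-0.64) and Ap3d1 (-0.34).

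Gm11437 and AI506816 had the widest differences on chow, in opposite directions. Gm11437 ran from 5.81 through a median of 6.74 to 7.34 in Ogg1-/- livers on the HFD, and from 7.67 through 8.18 to 8.44 in WT livers on that diet. On chow its log2 signal ran from 5.97 through 7.44 to 7.67 in Ogg1-/- livers, and from 8.07 through 8.69 to 9.08 in WT livers. There was no overlap on either diet, and the difference was -1.38 (SE 0.27) on the HFD, or -0.80 with the axis score as a covariate, and -1.49 (SE 0.27) on chow. AI506816 ran from 6.54 through 7.07 to 7.54 in Ogg1-/- livers and from 5.26 through 6.29 to 7.16 in WT livers on the HFD, with overlap. On chow it ran from 6.67 through 6.91 to 7.86 in Ogg1-/- livers and from 5.08 through 5.56 to 6.17 in WT livers, without overlap. Its difference was 0.78 (SE 0.27) on the HFD and 1.47 (SE 0.27) on chow. With the label ending as a covariate it was 2.58 on chow, a shift that rests on WT HFD replicate 5 alone. The HFD difference minus the chow difference was -0.70 (SE 0.38) for AI506816 and, in the 7 genes other than it and Serpinb1a, ran from -0.23 (Camk1d) to 0.32 (Marveld1), again with no test.

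**Figure D1:**
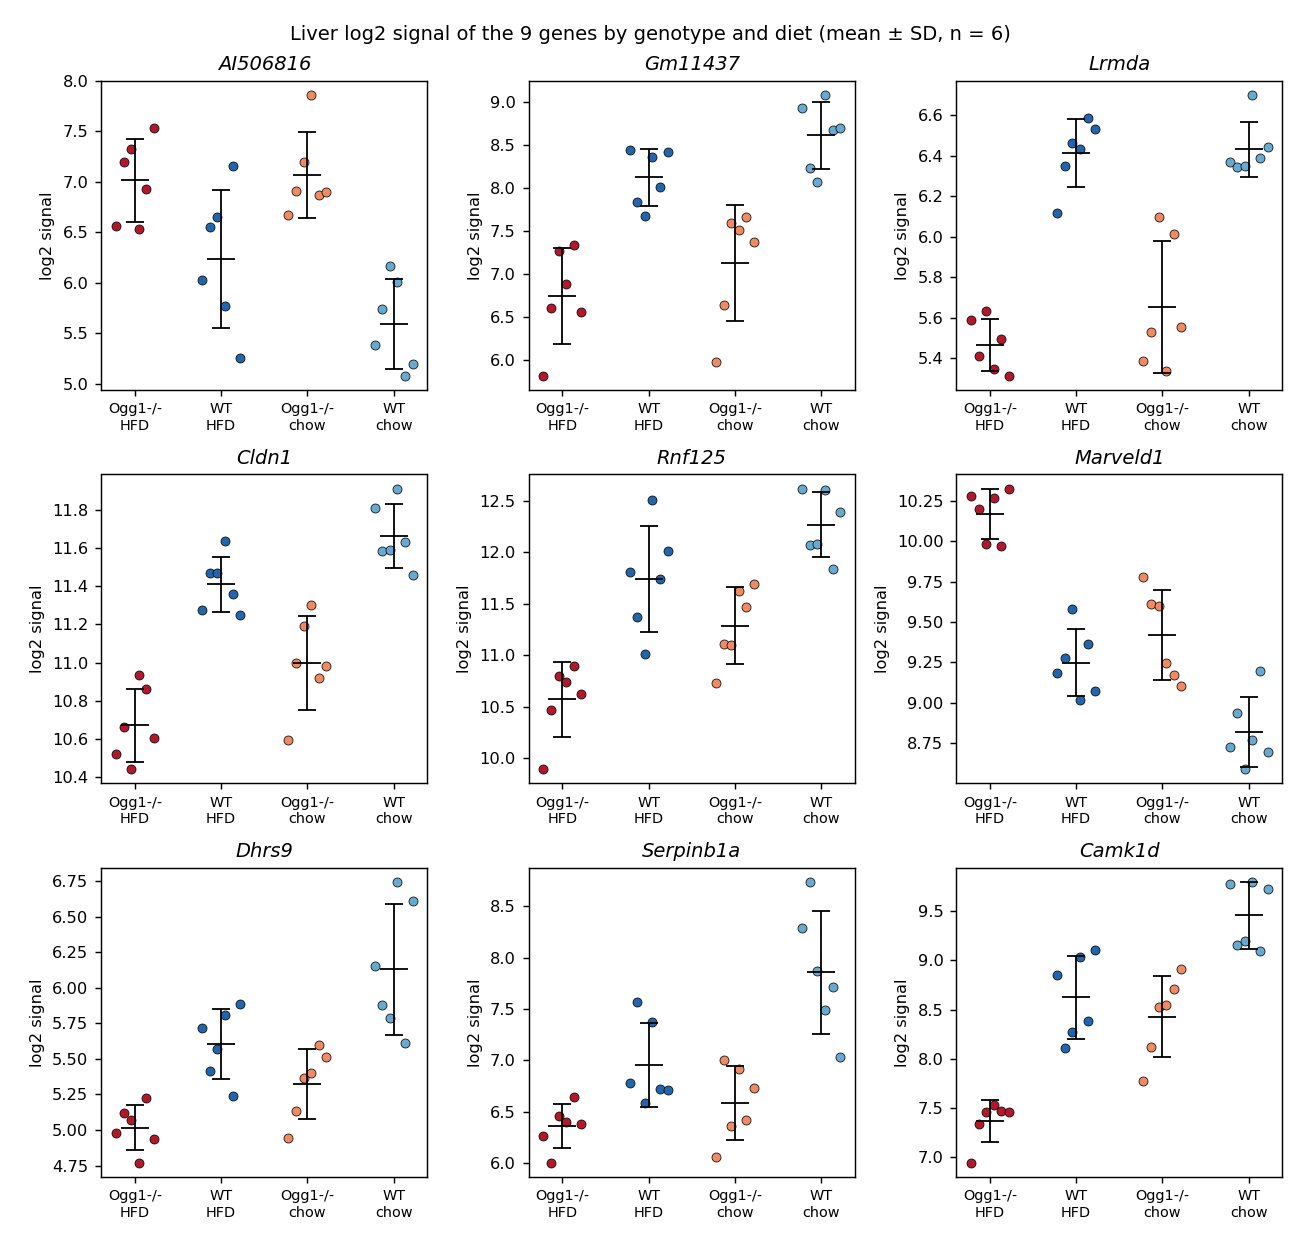
Log2 signal (vertical axis) of each of the 9 genes in 6 livers per group, with Ogg1-/- HFD, WT HFD, Ogg1-/- chow and WT chow from left to right. Points are mice, horizontal bars the mean and whiskers the SD. For 7 genes the mean of each Ogg1-/- group lies below that of the WT group on the same diet, and for AI506816 and Marveld1 above. Points of the genotypes overlap for AI506816 and Serpinb1a on the HFD and for Marveld1 on chow.

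Diet was tested next, by the limma model over all probe sets. The diet difference averaged over the genotypes has errors uncorrelated with the genotype differences, though it shares their residual variance. Averaged over the genotypes, 6 of the 9 genes changed between HFD and chow, whereas 14.3% of all probe sets did (6.65% higher and 7.61% lower on the HFD). Of the 19938 genes, each by 1 probe set, 1729 passed higher and 1587 lower. Camk1d fell by 0.95 on the log2 scale (SE 0.14, adjusted p = 0.000105) and Marveld1 rose by 0.59 (SE 0.09, adjusted p = 0.000113). Rnf125 fell by 0.62 (SE 0.15, adjusted p = 0.00984), Cldn1 by 0.29 (SE 0.08, adjusted p = 0.0146), Dhrs9 by 0.42 (SE 0.12, adjusted p = 0.0196) and Serpinb1a by 0.56 (SE 0.16, adjusted p = 0.0221). The 3 genes that did not pass were AI506816 (0.29, 95% interval -0.10 to 0.69), Gm11437 (-0.44, -0.84 to -0.04) and Lrmda (-0.10, -0.27 to 0.07). Leaving out any 1 array kept all 6 calls, and without Ogg1-/- chow replicate 1 Gm11437 passed too (-0.55, adjusted p = 0.0181). With the axis score as a covariate, Camk1d (-0.70) and Marveld1 (0.44) passed and Cldn1 (-0.21), Rnf125 (-0.37), Dhrs9 (-0.25) and Serpinb1a (-0.46) did not. With the label ending as a covariate, Camk1d, Marveld1 and Dhrs9 passed, while Cldn1 (-0.32), Rnf125 (-0.62) and Serpinb1a (-0.68) did not, at differences no smaller than without it. In that fit the WT part of the difference compares only HFD replicate 5 with the WT chow livers, so these calls lean on that liver.

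The diet contrasts within a genotype share their group means with the contrasts that chose the genes, so their counts are a description. Within Ogg1-/- livers, 3 of the 9 genes passed between HFD and chow, as did 9.53% of all probe sets. Camk1d fell by 1.07 on the log2 scale on the HFD (SE 0.20, adjusted p = 0.00224, limma) and Marveld1 rose by 0.75 (SE 0.12, adjusted p = 0.000808). The HFD and chow livers did not overlap for these genes. Rnf125 fell by 0.72 on the HFD (SE 0.22, adjusted p = 0.0387, limma), but this call was lost on leaving out any of 7 arrays, namely chow replicates 2, 4, 5 and 6 or HFD replicates 1, 2 and 6 of the Ogg1-/- groups (adjusted p up to 0.113). Cldn1 was at -0.33 (adjusted p = 0.0583), and passed without Ogg1-/- chow replicate 1 (0.00438) or without Ogg1-/- HFD replicate 4 (0.0357) or 5 (0.0492).

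In WT livers, only Camk1d passed, at -0.83 (SE 0.20, adjusted p = 0.0371, limma), where 0.925% of probe sets did. Its HFD and chow ranges shared only the values near 9.10, and the call was lost on leaving out WT chow replicates 1, 4 or 6 or WT HFD replicates 1, 2, 3 or 5 (adjusted p up to 0.109). It was also lost with the 12 WT arrays alone and with the methods' t-test adjusted by Benjamini-Hochberg, where 0 of the 9 genes passed. With the label ending as a covariate the WT contrast compares only HFD replicate 5 with the chow livers, so no call is read from it. Serpinb1a had the next lowest adjusted p (0.0575, limma), at a difference of -0.90 (SE 0.23) that was larger in size than that of Camk1d. It passed without WT chow replicate 6, WT HFD replicate 2 or Ogg1-/- chow replicate 1, and Marveld1 (0.43, adjusted p = 0.103) passed without WT chow replicate 5 (0.0442). Whether the diet effects differ between the genotypes was not tested, as that difference equals the one between the genotype differences on the 2 diets given above without a test.

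**Figure D2:**
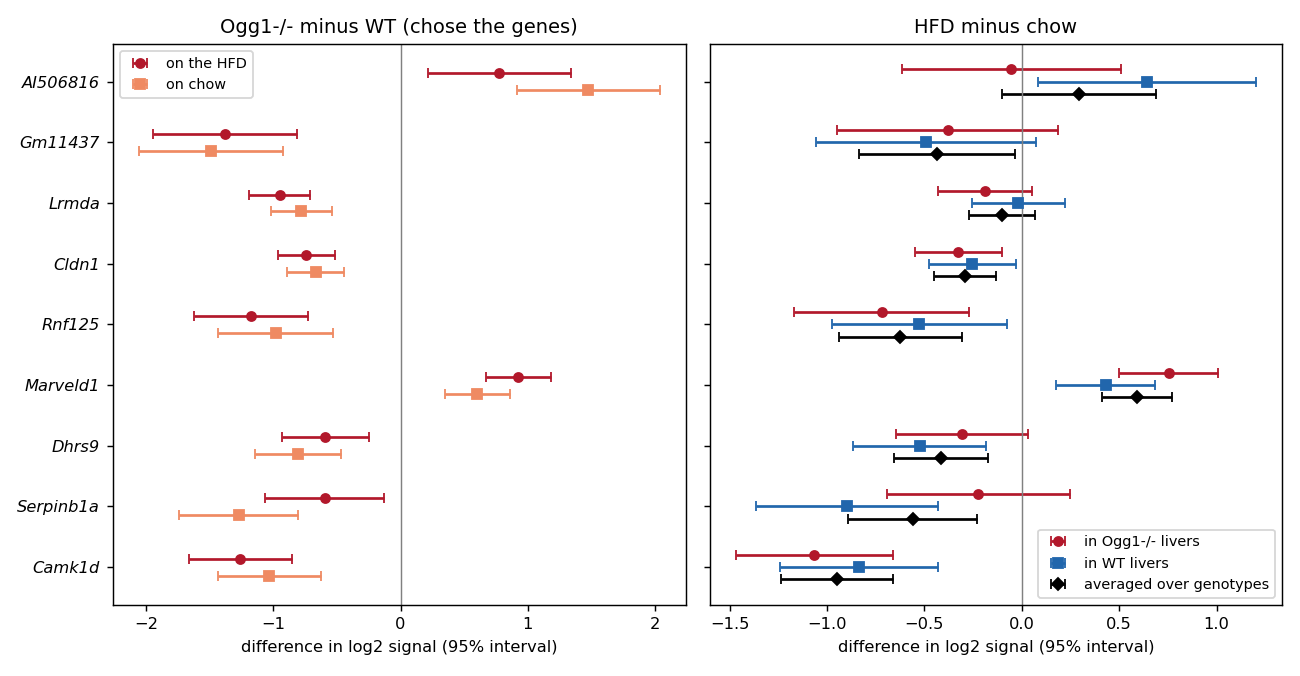
Differences in log2 signal (horizontal axis, with 95% intervals) for the 9 genes (vertical axis). At left, Ogg1-/- minus WT on the HFD and on chow, which chose the genes. At right, HFD minus chow in Ogg1-/- livers, in WT livers and averaged over genotypes. Camk1d lies farthest from 0 among the averaged diet differences, at -0.95, followed by Rnf125 at -0.62 and Marveld1 at 0.59.

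The remaining spread among mice of 1 group was then examined. After the group means were removed, 36 pairs of genes were compared over 24 livers by a permutation test within groups. After adjustment over the 36, 10 pairs passed, and they are exactly the 10 pairs among 5 genes: Camk1d, Rnf125, Gm11437, Dhrs9 and Marveld1. The first 4 rose and fell together from mouse to mouse (6 pairs, r from 0.58 to 0.87), and Marveld1 ran against them (4 pairs, r from -0.77 to -0.58). By rank correlation 9 of the 10 passed, the exception being Gm11437 with Marveld1 (rho = -0.55, adjusted permutation p = 0.0510). None of the other 26 pairs passed, with r from -0.26 to 0.49, and AI506816, Lrmda, Cldn1 and Serpinb1a were in no passing pair. The share of all gene pairs on the array that would pass in the same way was not counted. The block is therefore not shown to be particular to these genes.

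Rnf125 and Camk1d were the closest pair, with r = 0.87 (permutation p = 1e-05, the smallest that the permutations can give, adjusted p = 0.00018) and rho = 0.90. Their r was 0.96 in Ogg1-/- and 0.83 in WT livers on the HFD, and 0.89 in Ogg1-/- and 0.96 in WT livers on chow. The strongest opposite pair was Rnf125 with Marveld1, at r = -0.77 (adjusted permutation p = 0.00036) and rho = -0.76. Without the 2 livers farthest from the median of the first gene, the 6 positive values ran from 0.60 to 0.87 and the 4 negative ones from -0.76 to -0.46. Within the groups, 38 of 40 values of r had the sign of the pooled one. The exceptions were Dhrs9 with Camk1d in Ogg1-/- HFD livers (-0.05) and Gm11437 with Marveld1 in WT chow livers (0.10). Without Ogg1-/- chow replicate 1, 9 of the 10 pairs passed and Gm11437 with Marveld1 did not (r = -0.47, adjusted permutation p = 0.0954).

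**Figure D3:**
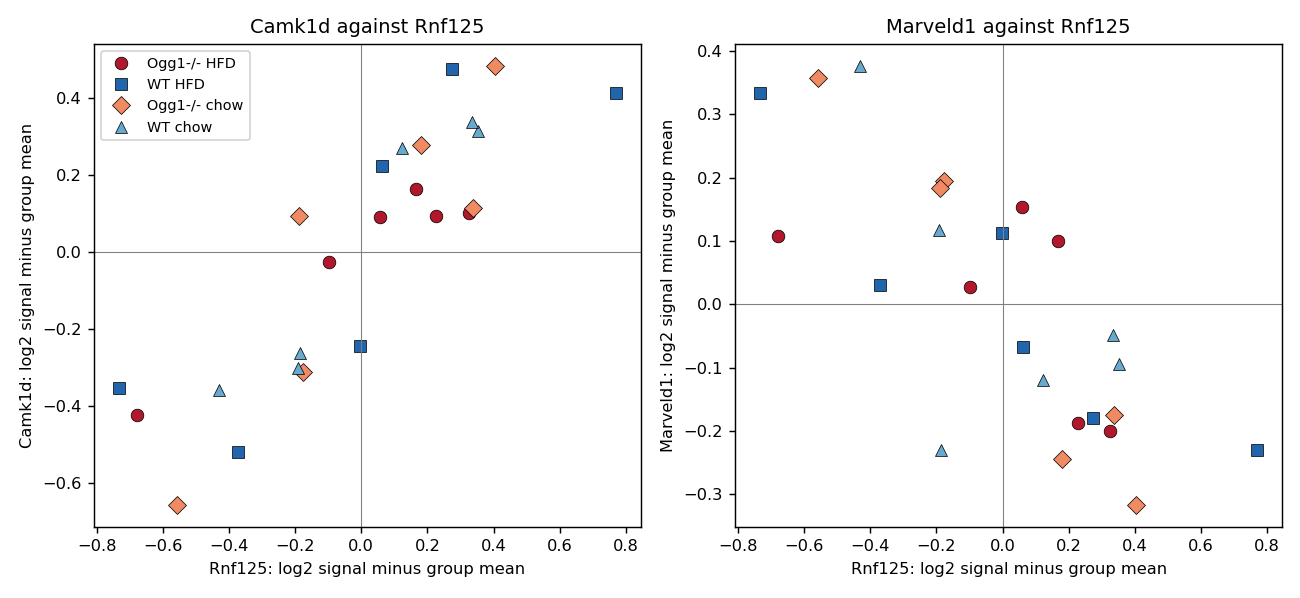
Deviation of each liver from its group mean in log2 signal, Rnf125 on the horizontal axes and Camk1d (left) or Marveld1 (right) on the vertical axes. Markers give the 4 groups, in the order Ogg1-/- HFD, WT HFD, Ogg1-/- chow and WT chow. Points of all 4 groups rise together for Camk1d (r = 0.87) and run opposite for Marveld1 (r = -0.77).

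The axis score and the clock genes were set against the 9 genes in the same way, in 27 pairs. The same 5 genes passed with the axis score: Gm11437 (r = -0.72, rho = -0.65), Camk1d (-0.68, -0.70), Rnf125 (-0.63, -0.72), Dhrs9 (-0.56, -0.64) and Marveld1 (0.68, 0.68), with adjusted permutation p from 0.00227 to 0.00478. Without the 2 livers farthest out on the axis, r was -0.64, -0.55, -0.60 and -0.54 for the 4 negative genes and 0.58 for Marveld1. Within the WT HFD group r was -0.38 for Gm11437, -0.04 for Camk1d, -0.22 for Rnf125, 0.01 for Dhrs9 and 0.50 for Marveld1. For Dhrs9 r was also only 0.08 in Ogg1-/- HFD livers, against -0.91 in Ogg1-/- and -0.96 in WT livers on chow. As the axis was computed from these arrays with the genes included, the 2 measures are not independent. The share of all genes that would pass with the axis score was not counted. When the axis score was removed as well, r ran from 0.33 to 0.78 among the 6 positive pairs and from -0.60 to -0.17 among the 4 negative pairs.

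Arntl, which encodes the clock activator BMAL1, passed with Rnf125 (r = 0.74, rho = 0.70, adjusted permutation p = 0.00227), Gm11437 (0.61, 0.54, 0.00227), Camk1d (0.58, 0.56, 0.0338) and Cldn1 (0.48, 0.47, 0.0389). By rank correlation Camk1d (adjusted p = 0.0503, permutation) and Cldn1 (0.0659) did not pass. The share of all genes that would pass with Arntl was not counted either. Without the 2 livers farthest from the median of Arntl, r was 0.58 for Rnf125, 0.63 for Gm11437, 0.52 for Camk1d and 0.58 for Cldn1. Ciart, a transcriptional repressor of the clock, passed with none of the 9 over the 24 livers, with r from -0.47 (Rnf125) to 0.38 (Marveld1). The pooled r hides differences between groups. With Rnf125 it was 0.11 in Ogg1-/- and -0.94 in WT livers on the HFD, and 0.11 and -0.89 on chow. With Camk1d it was 0.27 and -0.82 on the HFD, and 0.31 and -0.95 on chow. Dhrs9 did not split by genotype, at -0.74 and -0.47 on the HFD and 0.35 and -0.86 on chow. These group values were not tested. Between the genotypes, the difference of Ciart was 2.53 on the HFD and 2.68 on chow, and that of Arntl was -0.79 on the HFD and -1.56 on chow. The part of the clock genes and of the axis in the differences of the 9 genes was not tested.

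**Figure D4:**
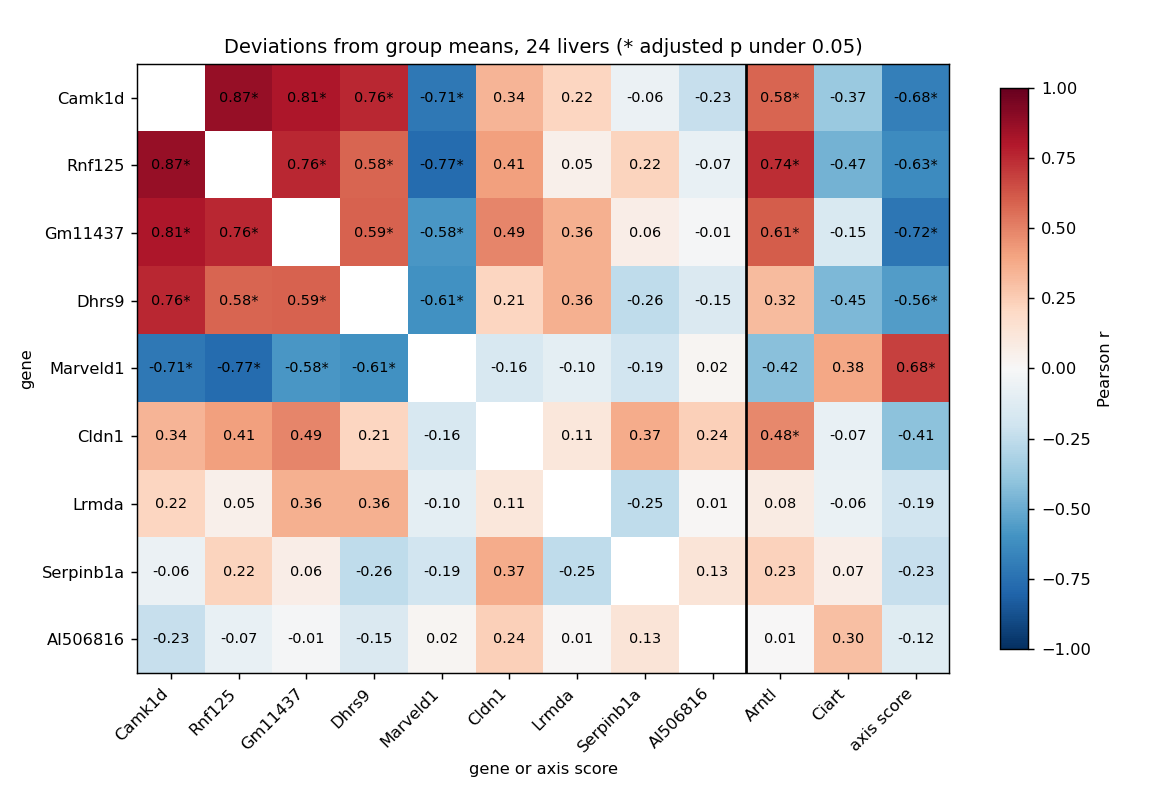
Pearson r between deviations from group means over 24 livers, for the 9 genes with each other and, right of the line, with Arntl, Ciart and the axis score. Rows and columns are genes, colours run from -1 to 1, and stars mark an adjusted permutation p under 0.05. The upper left block holds the 10 passing pairs, positive among Camk1d, Rnf125, Gm11437 and Dhrs9 and negative with Marveld1.

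For each gene the 2 other genes with the most similar deviations over the 24 livers were listed, as a description. Camk1d was followed most closely by Polr3a (r = 0.91) and Frmd4b (0.90), and Rnf125 by Camk1d itself (0.87) and Eif2ak4 (0.86). Gm11437 was followed by Slc2a2, which encodes the liver glucose transporter, at 0.91 and by the choline transporter gene Slc44a1 at 0.89. Dhrs9 was nearest to Htt and Zfhx4 (0.84 each), Marveld1 to Gorasp1 (0.86) and Zfp865 (0.85), and Cldn1 to Cnot8 (0.81) and Acvr1 (0.79). AI506816 (Wipi2 at 0.75 and Ube2h at 0.75), Serpinb1a (Prr16 at 0.74 and Gm4952 at 0.73) and Lrmda (1500002F19Rik at 0.73 and Bsnd at 0.71) had looser nearest genes.

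Cell type markers were measured beside these results. On chow none of the hepatocyte, cholangiocyte, neutrophil, Kupffer cell, endothelial, stellate cell or lymphocyte markers passed between the genotypes. On the HFD, 7 of 12 endothelial markers were lower in Ogg1-/- livers (median difference of -0.48), as were 3 of 11 stellate cell markers, while 3 of 13 Kupffer cell markers were higher and 2 lower. Over all genes, 11.9% passed higher and 11.8% lower on the HFD. The mean log2 signal of the endothelial list ran from 8.15 to 8.38 in Ogg1-/- and from 8.47 to 8.77 in WT livers on the HFD, and from 8.17 to 8.74 in Ogg1-/- and from 8.47 to 8.87 in WT livers on chow. Of the hepatocyte markers 1 of 9 was lower on the HFD, and none of 7 cholangiocyte markers passed. The part of cell composition in the differences of the 9 genes was not tested.

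Of all genes with a single symbol, 31 met both thresholds on each diet in 1 direction, and 8 of them are the members other than Serpinb1a. Another 8 are clock genes and 15 are neither. The 6 largest of these 15 by mean difference over both diets were Mug2 (-3.10), Gm10319 (-1.53), Clpx (-1.27), Apobec1 (-1.06), Tspan4 (0.90) and Bid (-0.88), of which Mug2, Gm10319, Apobec1 and Bid lie on chromosome 6 with Ogg1. Sumf1, also of the 15, and the clock gene Bhlhe41 lie there too. The share of all genes on chromosome 6 was not counted.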

How the data were processed

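The deposited series table holds log2 signals per probe set, from 1.81 to 14.8, which the authors made from 24 arrays and which the submitters' processing notes credit to RMA. No source used here gives the RMA version or the genome build of the array annotation. The study's methods state that samples failing quality control were discarded or relabelled. Of 35556 probe sets, 21789 have 1 symbol in the platform annotation, 1621 several and 12146 are not named here. This left 19938 genes, each taken from its brightest probe set on average. The 4 group means were estimated for every probe set in a single limma fit (limma 3.58.1, R 4.3.3: lmFit, contrasts.fit, eBayes), with Benjamini-Hochberg adjustment over all probe sets and no filter, a gene passing at an adjusted p under 0.05. The fit was also run on simulated data with independent noise for each probe set. That setting leaves out the axis of variation that these arrays share, so nothing about the calls is read from it. Correlations of deviations from group means used 100000 two-sided permutations within groups, adjusted per family. For each gene, the 2 genes of highest r were named, for each gene list up to 3 that passed with the smallest adjusted p, and up to 6 genes of neither class called on both diets. The lower genes of RIG-I signalling and the other chromosome 6 genes called on both diets were named as well. The members and the gene lists were chosen with earlier results of these data known. Over 36 pairs of groups and replicate numbers, correlations of deviations ran from -0.27 to 0.43 (median -0.03), so replicates were not paired. Other settings tried were blocking by replicate number, median centring, quantile normalization, weighting arrays, a robust prior with a trend, dropping dim probe sets, 1 genotype alone, the methods' t-test, the axis score or label ending as a covariate, a fold threshold and leaving out each array. The number of arrays limits the precision.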

Additional observations from a re-analysis of the deposited data

Results flagged for a closer look

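In 36 sets of 6 livers (9 genes in 4 groups), the gap between the most extreme liver and its nearest neighbour was compared with the range of the set, and 2 sets exceeded Dixon's 95% critical value for 6 samples, where chance gives about 1 in 20. For Camk1d in Ogg1-/- livers on the HFD, replicate 1 had a log2 signal of 6.94 and the next liver 7.34, a gap of 0.676 of the range. For Lrmda in WT livers on chow, replicate 4 had a log2 signal of 6.70 and the next liver 6.44, a gap of 0.720 of the range.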

How the results depend on the processing

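Replicate numbers do not pair these mice. With the replicate block, 6 genes passed between HFD and chow averaged over genotypes, 1 in WT and 4 in Ogg1-/- livers, with 5032 probe sets averaged over genotypes, against 6, 1, 3 and 5069 without it. Averaged over genotypes, 2 genes passed with the axis score as a covariate, 3 with the label ending as a covariate and 3 with a fold of at least 1.5, and the probe sets that passed numbered 2315, 1815 and 675 under these settings and 8833 with array weights. In WT livers, 2 genes passed without dim probe sets, 3 with array weights, and 0 with the 12 WT arrays alone and with the methods' t-test. In WT livers the t-test put 6 genes under an unadjusted p of 0.05, as it did 5908 of the 35556 probe sets. Without dim probe sets and with array weights, the share of all probe sets that passed in WT livers was not counted. With the label ending, the WT contrast compares only 1 HFD liver with the chow livers, so no count is given. Leaving out each array gave 6 to 7 genes averaged over genotypes, 0 to 2 in WT livers, 2 to 4 in Ogg1-/- livers and 3565 to 9572 probe sets, the highest without Ogg1-/- chow replicate 1. Without that liver 9 gene pairs passed by correlation, against 10, an alternative chosen after seeing the data, as was removing the axis score from the pairs. Of the averaged diet differences of single genes, 278 values under the alternatives kept direction and call, 7 lost and 2 gained the call. Of the genotype differences, which carry no test and were judged by size alone, 568 moved by less than 1 SD and 6 by more. None of these reversed, but many could not move. Leaving out an array of 1 diet does not change the difference on the other diet. The replicate block, the robust prior with a trend and dropping dim probe sets leave the differences as they were. The 6 that moved by more were, with the axis score on the HFD, Gm11437 (-0.80), Marveld1 (0.69) and Camk1d (-0.87). The rest of them were, with the label ending on chow, AI506816 (2.58), Lrmda (-0.57) and Dhrs9 (-1.25), shifts that rest on WT HFD replicate 5 alone. Leaving out dim probe sets drops Dhrs9. Each gene has 1 probe set, so a mean over probe sets gave no other value. The causes were not tested, and the number of arrays limits all counts.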
